A study of Mus musculus with 6 samples.

Results

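The 10 genes examined belong to the YAP/TAZ arm of Hippo signalling: the effectors Yap1 and Wwtr1 (the gene of TAZ), their DNA-binding partner Tead1, the Hippo regulators Lats2, Ptpn14, Amotl2 and Ajuba, and the target genes Ankrd1, Axl and Crim1. They were taken by symbol from the deposited expression table, where all 10 were found among 24413 genes. The cells were sorted by their tdT reporter from Achilles tendons. The donors were male, 12 weeks old and of genotype Tppp3ECE/+;R26RtdT-CreERT2;Scx-GFP. Sorted cells were kept for 24 h in medium with 1% FBS (control, 3 libraries) or in medium conditioned by cultured dorsal root ganglia (DRG CM, 3 libraries). The conditioned medium came from lumbar ganglia of 12-week-old male C57BL/6J mice, grown for 4 to 5 days in 5% FBS with 5-fluoro-2-deoxyuridine and uridine at 20 µM each and then moved to medium with 1% FBS for collection. Both groups of cells had the same genotype, source tissue and serum level. Tendons were taken from 3 mice, and no label ties a library to an animal, so p-values here measure the spread between libraries, which may be technical. Substances released by the ganglia, nutrients they used up and traces of drug reached the cells together and cannot be told apart.

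YAP and TAZ are coactivators without a DNA-binding domain of their own. When the kinases LATS1 and LATS2 are active, YAP and TAZ are phosphorylated and held in the cytoplasm. When the kinases are inactive, as in stretched or spread cells, they enter the nucleus and bind TEAD factors at target genes. Several Hippo regulators, Lats2, Amotl2, Ptpn14 and Ajuba among them, are themselves listed as YAP/TAZ targets. Control of this pathway acts largely on the proteins, so the transcript levels of Yap1 and Wwtr1 are not a readout of YAP or TAZ activity. Transcripts of target genes are used as readouts, but YAP and TAZ proteins and their activity were not measured here.

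TEAD factors are known for binding the MCAT element, whose core letters are GGAATG. In RefSeq promoters of GRCm38.p6, 9 of the 10 genes had an entry, and 8 of these held the letters at least once, searched on both strands, in the 250 bases before a start. The same letters stood before 3880 of the 27025 genes with a promoter entry (14.4%) and before 12.8% of the 8546 tested genes with one. The promoters of the 9 genes had a median GC content of 62.8%, against 60.4% for the tested genes. The matches are shown because 8 of the 10 genes share them. Each is given as 30 bases of GRCm38.p6, read 5′ to 3′ on the strand where the letters run GGAATG, which stand in capitals.

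Yap1, 141 bases before the start, chr9:8004720-8004749, minus strand: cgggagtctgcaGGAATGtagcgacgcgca
Wwtr1, 136 bases before, chr3:57576029-57576058, minus strand: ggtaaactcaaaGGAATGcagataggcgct
Ptpn14, 146 bases before, chr1:189728110-189728139, minus strand: ctgggcgggccaGGAATGcgtccggggagg
Amotl2, 65 bases before, chr9:102717727-102717756, minus strand: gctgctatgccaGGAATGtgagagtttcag
Ajuba, 186 bases before, chr14:54577830-54577859, plus strand: gaggggcactgtGGAATGtatccatcaacg
Ajuba, 164 bases before, chr14:54577808-54577837, plus strand: ttgtttacagttGGAATGcgcggaggggca
Ankrd1, 210 bases before, chr19:36120037-36120066, minus strand: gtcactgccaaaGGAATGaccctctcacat
Ankrd1, 123 bases before, chr19:36119950-36119979, minus strand: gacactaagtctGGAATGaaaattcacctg
Axl, 233 bases before, chr7:25788949-25788978, minus strand: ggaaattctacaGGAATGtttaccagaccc
Crim1, 79 bases before, chr17:78200157-78200186, plus strand: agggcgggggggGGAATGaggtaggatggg

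Ankrd1 and Ajuba each held 2 matches, as did 1.18% of all genes with an entry (2 or more). GENCODE placed the matches of Ankrd1 and Amotl2 inside an untranslated exon of a longer transcript of the same gene, and the other 7 matches outside any annotated transcript. Lats2 had entries for 2 starts and no match in either window. Of the other genes of a widely used 22-gene YAP/TAZ target signature, 9 had an entry and 1 of these, Ccn1 (listed as Cyr61 in the expression table), held the letters. The matches stood before genes that rose and before genes that did not pass the test alike. They are a description of letters and no measurement of TEAD binding.

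**Figure D1:**
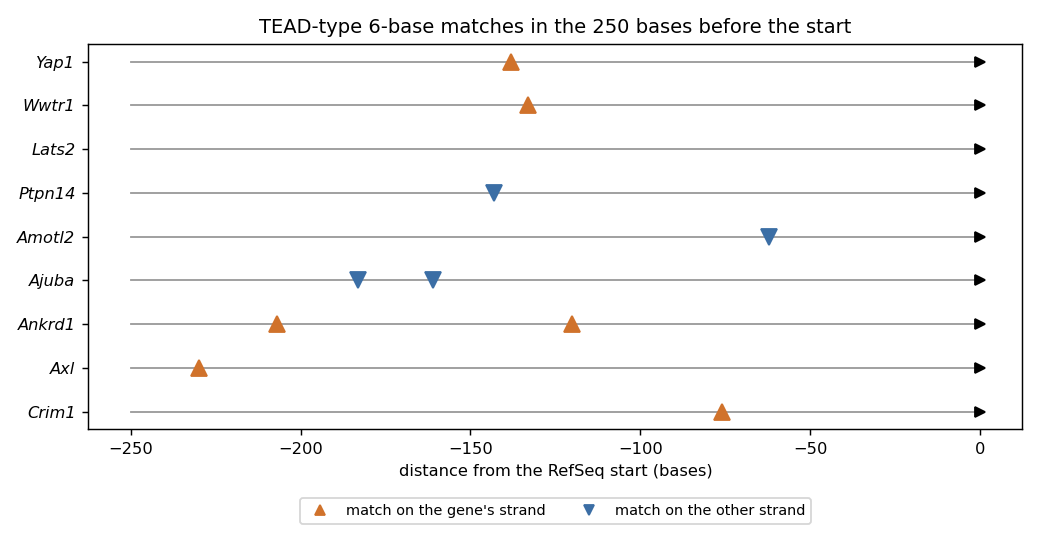
Positions of the 6-base matches (triangles, middle of the match) in the 250 bases before the RefSeq start (arrowhead) of 9 genes; the x axis is distance from the start in bases, and for genes with 2 starts the window drawn is the first. The 2 matches of Ankrd1 lie on its own strand, the 2 of Ajuba on the other strand, and Lats2 has none.

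Expression was deposited as FPKM, fragments scaled to the length of the gene and to the total of the library. The libraries held 18774556 to 26061245 fragments. Differences were tested on log2(FPKM + 1) with limma over 11678 genes whose mean reached 1 FPKM, with Benjamini-Hochberg adjustment and a threshold of 0.05. A log2 fold change is conditioned minus control with its standard error (SE), and the 95% interval is that of the same fit. A fold is given as the ratio of mean FPKM. All 10 genes passed the level filter.

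Ankrd1, Crim1 and Yap1 rose in DRG CM, none of the 10 genes fell, and 7 did not pass. The share of all tested genes called higher was 4.04%, and the share called lower 2.49%. The 10 genes were chosen with earlier results of these data known. Shares of all tested genes are therefore given for scale only, and an excess over them was not tested. At an unadjusted p below 0.05, 4 of the 10 genes were higher and 0 lower in limma, against 11.2% and 8.41% of all tested genes. Limma's voom on recovered fragments called 4 higher (Axl in addition) and 0 lower, against 6.11% and 3.72% of all tested genes. Every conditioned library lay above every control library for 5 genes (Ankrd1, Crim1, Yap1, Axl and Amotl2), against 14.3% of all tested genes. The reverse was seen for 0 of the 10, against 11.6%. The median log2 fold change of the 10 was 0.11, and that of all tested genes 0.01. With 3 libraries against 3, an exact two-sided permutation test of 1 gene cannot go below 0.1, and these 5 genes reached that p.

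**Figure D2:**
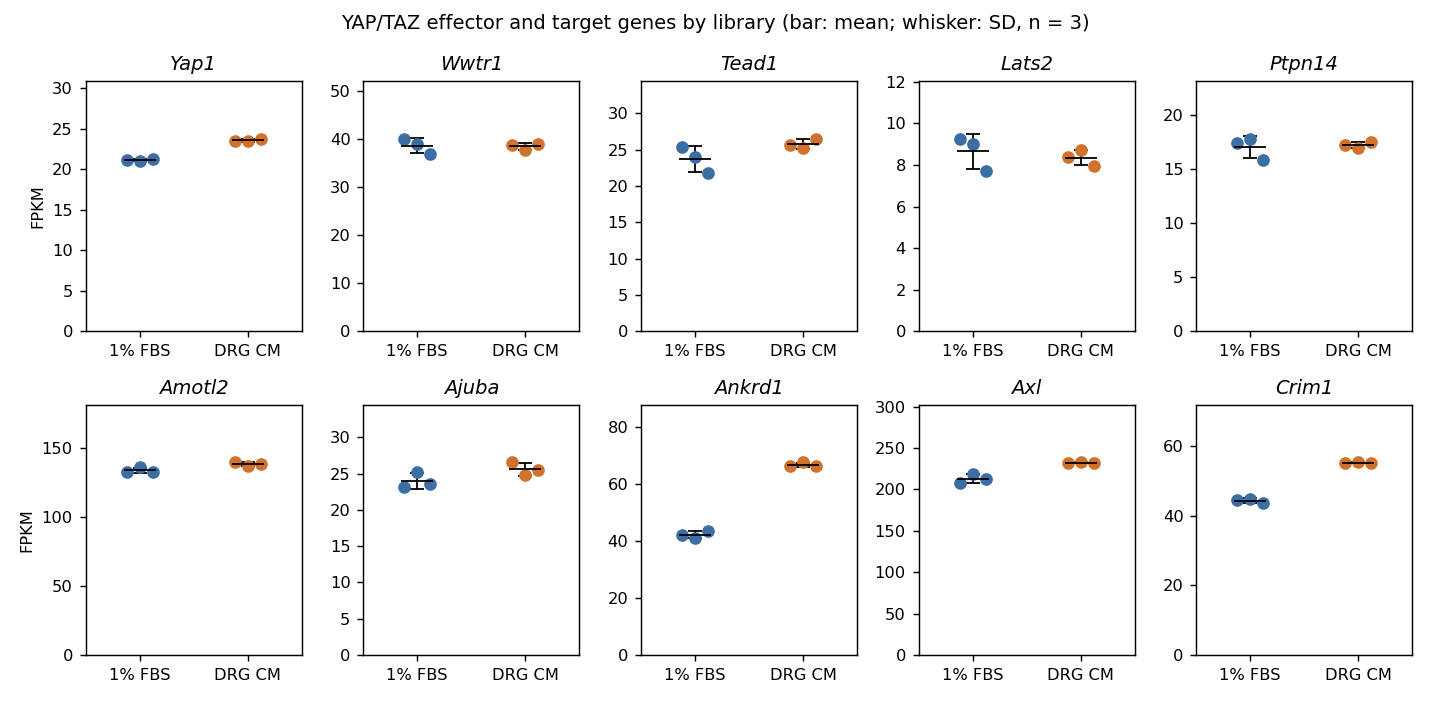
FPKM of the 10 genes in each of the 6 libraries (points, replicates 1 to 3 from left to right), with the mean and SD of each group of 3; y axes start at 0. The groups are far apart for Ankrd1 (40.9 to 43.4 against 66.1 to 67.5 FPKM) and Crim1. They are less far apart for Yap1 and Axl, narrowly apart for Amotl2, and overlap for the other 5 genes.

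Yap1 (chromosome 9, 7931999 to 8004596, minus strand, mm10) encodes the coactivator YAP. It was at 21.1, 21.0 and 21.2 FPKM in control libraries 1, 2 and 3 and at 23.4, 23.5 and 23.8 FPKM in conditioned libraries 1, 2 and 3. The groups did not overlap, and the libraries within each group were close together. The rise was 1.12-fold, with a log2 fold change of 0.15 ± 0.03 SE (95% interval 0.07 to 0.23, limma adjusted p = 0.039). The SD of 0.106 FPKM between control libraries was below the 0.313 FPKM that counting error alone would give at 3959 to 5098 fragments a library, so the spread seen here is smaller than the precision of the counts. The call was the least firm of the 3: it was lost when any 1 of the 6 libraries was left out (0.15 to 0.16, adjusted p from 0.070 to 0.13) and with quantile normalization (0.13, adjusted p = 0.096). Gm20416, which overlaps Yap1 on the other strand over 1.25% of its exon bases, was at 0.064 and 0.090 FPKM.

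Wwtr1 (chromosome 3, 57455649 to 57575910, minus strand) encodes TAZ, the paralog of YAP. Its control libraries had 40.0, 38.9 and 36.8 FPKM and its conditioned libraries 38.8, 37.6 and 38.8 FPKM. The conditioned values fell inside the control range. The log2 fold change was -0.01 ± 0.04 SE, and its interval of -0.10 to 0.09 allows a change of 0.932-fold to 1.06-fold in FPKM + 1. Its sign turned when control library 1 or 2 or conditioned library 2 was left out (0.0004 to 0.0192). TAZ transcripts were more abundant than YAP transcripts in each library. The share of Wwtr1 in the summed FPKM of Yap1 and Wwtr1 was 65.4%, 65.0% and 63.5% in control and 62.3%, 61.5% and 62.0% in conditioned libraries. This share does not depend on library scaling. It was lower in every conditioned library, with a two-sided exact permutation p of 0.1, the smallest that 3 against 3 allows (0.175 after Benjamini-Hochberg adjustment over the 7 family shares computed).

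Tead1 (chromosome 7, 112679318 to 112906807, plus strand) encodes a TEAD transcription factor. Control libraries had 25.4, 23.9 and 21.8 FPKM and conditioned libraries 25.6, 25.3 and 26.5 FPKM. Control library 3 was low and control library 1 reached into the conditioned range. The log2 fold change of 0.12 ± 0.06 SE did not pass (95% interval -0.01 to 0.25, limma adjusted p = 0.30) and was 0.06 without control library 3. Tead1 was the most abundant TEAD gene, at 44.3% to 50.1% of the summed TEAD level in control and 47.8% to 49.6% in conditioned libraries. Tead2 had 13.85 ± 0.845 and 13.5 ± 0.555 FPKM (SD, n = 3) in control and conditioned cells, Tead3 11.2 ± 0.663 and 12.5 ± 0.407 FPKM, and Tead4 1.20 ± 0.0950 and 1.21 ± 0.0399 FPKM. None of these passed, and of them only Tead3 had groups without overlap (log2 fold change 0.14, limma adjusted p = 0.19). Of the vestigial-like cofactors, which bind TEADs in place of YAP, Vgll3 had 57.1, 53.2 and 50.8 FPKM in control and 59.2, 59.7 and 61.9 FPKM in conditioned libraries. Vgll4, a repressor of TEAD targets, had 8.04, 8.84 and 8.66 FPKM in control and 6.98, 7.28 and 7.51 FPKM in conditioned libraries. The groups did not overlap for either cofactor, and neither passed (log2 fold changes 0.16 and -0.20, limma adjusted p = 0.092 and 0.064). Both were called by voom on recovered fragments.

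**Figure D3:**
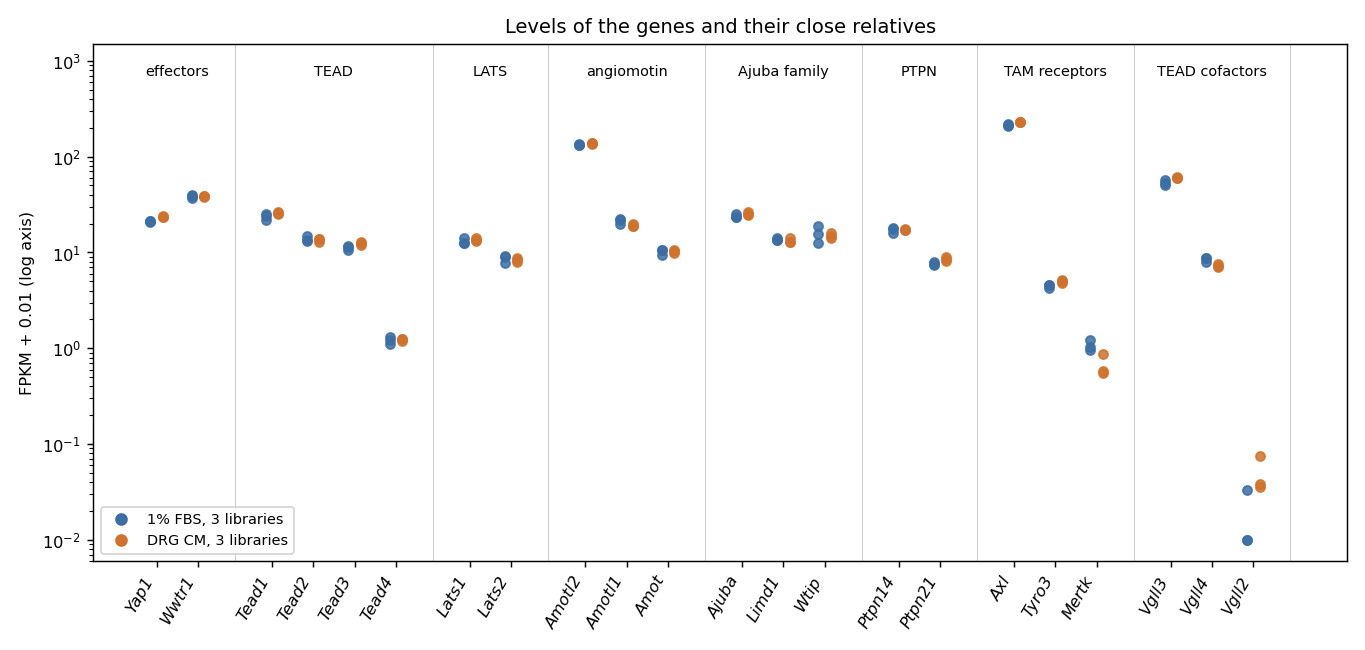
FPKM (log axis, with 0.01 added so that values listed at 0 can be drawn) of the genes and their close relatives, 3 control (blue) and 3 conditioned (orange) libraries each. Amotl2 and Axl stand above their relatives in every library, while Lats2 lies below Lats1.

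Among the regulators, Lats2 (chromosome 14, 57689662 to 57758388, minus strand), a kinase that phosphorylates YAP and TAZ, had 9.26, 8.995 and 7.70 FPKM in control and 8.37, 8.70 and 7.97 FPKM in conditioned libraries. The groups overlapped, and the log2 fold change was -0.04 ± 0.07 SE (95% interval -0.21 to 0.12, limma adjusted p = 0.80). Its sign turned without control library 1 (0.0029). Lats2 shares 42.4% of its exon bases with Gm49361 on the same strand, so fragments may have been split by the authors' counting and its level is uncertain. Gm49361 itself had no entry among the deposited genes, and whether it was counted is not known. Lats1, its paralog, was higher at 13.1 ± 0.817 and 13.6 ± 0.489 FPKM and did not pass.

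Ptpn14 (chromosome 1, 189728268 to 189876695, plus strand) encodes a tyrosine phosphatase that binds YAP and holds it in the cytoplasm. It had 17.4, 17.8 and 15.9 FPKM in control and 17.2, 17.0 and 17.5 FPKM in conditioned libraries. Control library 3 was again the lowest, and the groups overlapped. The log2 fold change of 0.02 ± 0.05 SE (95% interval -0.10 to 0.13, limma adjusted p = 0.89) turned negative without control library 3 (-0.0297) and with quantile normalization (-0.0128). Its paralog Ptpn21 had 7.65 ± 0.320 and 8.63 ± 0.413 FPKM, without overlap, and did not pass. The share of Ptpn14 in the sum of both ran from 67.9% to 70.1% in control and from 65.9% to 67.6% in conditioned libraries, without overlap (exact permutation p = 0.1, adjusted 0.175).

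Amotl2 (chromosome 9, 102716672 to 102733418, plus strand) encodes an angiomotin, a scaffold that binds YAP and activates LATS kinases. With 132, 136 and 133 FPKM in control and 139, 137 and 138 FPKM in conditioned libraries it was the second most abundant of the 10 genes. The groups did not overlap, by a gap smaller than the spread within control. The difference did not pass (log2 fold change 0.05 ± 0.03 SE, 95% interval -0.02 to 0.12, limma adjusted p = 0.46). Amotl1 had 21.4 ± 1.2502 and 19.1 ± 0.540 FPKM, with every conditioned library below every control library, and did not pass (log2 fold change -0.15, limma adjusted p = 0.14) but was called lower by voom. Amot had 10.2 ± 0.662 and 10.3 ± 0.400 FPKM. The share of Amotl2 in the 3 angiomotin genes was 80.0% to 81.9% in control and 82.1% to 83.0% in conditioned libraries (exact permutation p = 0.1, adjusted 0.175).

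Ajuba (chromosome 14, 54567472 to 54577558, minus strand) encodes a LIM protein that binds and restrains LATS kinases. Its values were 23.2, 25.2 and 23.6 FPKM in control and 26.5, 24.8 and 25.4 FPKM in conditioned libraries. Control library 2 lay above conditioned library 2, and the difference did not pass (log2 fold change 0.09 ± 0.05 SE, 95% interval -0.02 to 0.20, limma adjusted p = 0.34). Its relatives Limd1, at 13.7 ± 0.264 and 13.2 ± 0.777 FPKM, and Wtip, at 15.6 ± 3.12 and 14.9 ± 0.973 FPKM, did not pass.

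The other Hippo cascade genes showed no call in limma. Of 25 listed, 23 were tested and 0 passed in limma, with 3 lower and 0 higher at an unadjusted p below 0.05, and 3 lower (Nf2, Fat4 and Amotl1) and 0 higher in the voom fit. Among all tested genes, 11.2% were higher and 8.41% lower at that unadjusted p, and voom called 6.11% higher and 3.72% lower. Limma called 4.04% higher and 2.49% lower. Lats1, Amot, Amotl1, Limd1 and Wtip are on this list and also among the relatives and partners counted below. The list had a median log2 fold change of 0.01. The most abundant were Frmd6, a membrane adaptor, with 49.5 ± 2.70 and 48.8 ± 1.05 FPKM, Mob1a, a LATS cofactor, with 47.9 ± 1.64 and 48.1 ± 1.60 FPKM, and the kinases Map4k4, with 30.7 ± 0.934 and 30.1 ± 0.462 FPKM, and Map4k3, with 22.3 ± 0.201 and 22.8 ± 0.701 FPKM. Of the kinases upstream of LATS, Stk3 (MST2) had a log2 fold change of -0.12 and Stk4 (MST1) one of 0.01.

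Ankrd1 (chromosome 19, 36111961 to 36120099, minus strand) encodes an ankyrin repeat protein of muscle sarcomeres and nuclei and is a standard YAP/TAZ target. It had 42.1, 40.9 and 43.4 FPKM in control and 66.1, 67.5 and 66.3 FPKM in conditioned libraries. The lowest conditioned library was far above the highest control library. The rise was 1.58-fold, with a log2 fold change of 0.65 ± 0.04 SE (95% interval 0.57 to 0.73, limma adjusted p = 2.5e-05), and it was called in all 15 alternative settings (0.60 to 0.67). Only 119 of the 11678 tested genes had a larger positive log2 fold change. The values rest on 1544 to 2747 fragments a library, counted with a gene length read from the steps of the FPKM values, since the annotated length gave no whole fragments.

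Ankrd1 is also known from heart and skeletal muscle. Of 7 markers of those tissues 6 were in the table, and 5 of these (Myh6, Myh7, Tnnt2, Actn2 and Myl2) were at or near 0, at most 0.191 FPKM in any library. Acta1, skeletal muscle actin, had 39.2 ± 1.48 and 40.0 ± 1.90 FPKM and did not pass. Of 6 smooth muscle and pericyte markers, 5 were tested and 1 rose, against 4.04% of all tested genes. It was Myh11, with 14.6 ± 0.132 and 18.3 ± 0.393 FPKM (log2 fold change 0.31 ± 0.04 SE, limma adjusted p = 0.0024). The other 4 tested did not pass: Cnn1 had 129 ± 5.74 and 135.7 ± 1.73 FPKM, Cspg4 6.70 ± 0.390 and 7.11 ± 0.159 FPKM, Mcam 5.72 ± 0.166 and 5.06 ± 0.828 FPKM, and Des 3.12 ± 0.343 and 2.41 ± 0.219 FPKM, the last without overlap. Rgs5, a pericyte marker below the level filter, had 0.932 ± 0.163 and 0.5002 ± 0.0543 FPKM, also without overlap. The summed level of these 6 markers, most of it from Cnn1, ranged over 154.5 to 166.9 FPKM (control) and 167.3 to 170.7 FPKM (conditioned). These ranges did not overlap, by a narrow gap, and the part of this sum in the rise of Ankrd1 was not tested. The relatives Ankrd2 and Ankrd23 were below the level filter, at most at 0.180 and 0.415 FPKM.

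Crim1 (chromosome 17, 78200248 to 78376592, plus strand) encodes a membrane protein that binds BMPs and belongs to the 22-gene target signature. It had 44.6, 44.8 and 43.6 FPKM in control and 55.0, 55.3 and 55.1 FPKM in conditioned libraries. All conditioned libraries exceeded all control libraries by about 10 FPKM or more. The rise was 1.25-fold, with a log2 fold change of 0.31 ± 0.03 SE (95% interval 0.24 to 0.38, limma adjusted p = 8.7e-04), and it was called in all 15 alternative settings (0.26 to 0.32). The SD of 0.138 FPKM between conditioned libraries was below the 0.656 FPKM expected from counting alone. Fez2, on the other strand, overlaps 2.05% of the exon bases and had 37.3 and 39.8 FPKM; whether the counting used strand is not given in the sources used here.

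Axl (chromosome 7, 25757273 to 25788705, minus strand) encodes a receptor tyrosine kinase of the TAM family, for which GAS6 is the ligand. It was the most abundant of the 10 genes, with 207, 219 and 213 FPKM in control and 231, 232 and 232 FPKM in conditioned libraries. The groups did not overlap, and the control libraries varied more than the conditioned ones. The difference of 1.09-fold did not pass (log2 fold change 0.12 ± 0.03 SE, 95% interval 0.05 to 0.20, limma adjusted p = 0.065) and was called in 1 of 15 alternative settings, voom on recovered fragments (0.12, adjusted p = 0.013). Axl made up 97.4% to 97.6% of the summed TAM receptor level in control and 97.6% to 97.7% in conditioned libraries. Tyro3 had 4.48 ± 0.207 and 4.99 ± 0.155 FPKM, without overlap, and did not pass. Mertk was below the level filter at 1.06 ± 0.127 and 0.660 ± 0.183 FPKM, also without overlap. The ligand Gas6 was abundant, at 670, 681 and 713 FPKM in control and 707, 683 and 676 FPKM in conditioned libraries. Pros1, a reported ligand within the TAM family rather than of Axl in particular, had 58.6 ± 1.24 and 61.4 ± 1.45 FPKM, without overlap. Neither ligand passed. Of the 19 close relatives and partners listed for the 10 genes, 18 were in the table and 14 were tested. None of the 14 passed in limma (0 higher, 0 lower), with 4 higher and 2 lower at an unadjusted p below 0.05, and voom called 1 higher (Vgll3) and 2 lower (Amotl1 and Vgll4). The shares of all tested genes were 11.2% and 8.41% at that unadjusted p, and 6.11% and 3.72% by voom. Of the 14 tested, 5 lay higher and 2 lower without overlap between groups, against 14.3% and 11.6% of all tested genes.

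**Figure D4:**
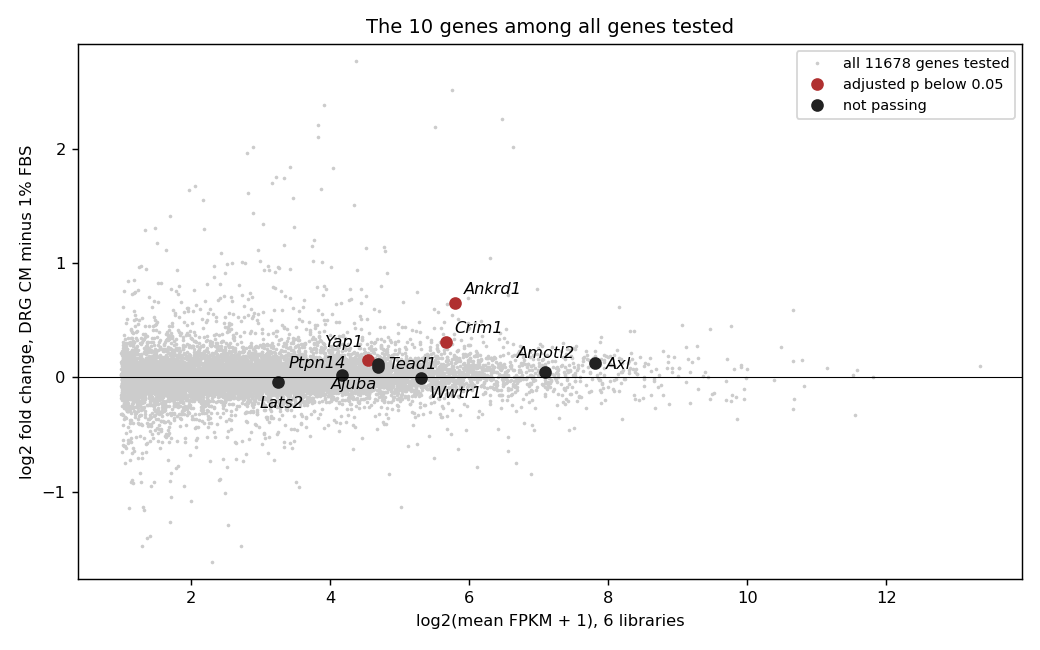
Log2 fold change (conditioned minus control) against log2 mean FPKM + 1 for all tested genes (gray dots), with the 10 genes marked (red: adjusted p below 0.05, black: not passing). Ankrd1 (0.65) and Crim1 (0.31) lie above the dense band of genes of like level, and the other 8 genes lie between -0.04 and 0.15.

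By level, the order in control was Axl, Amotl2, Crim1, Ankrd1, Wwtr1, Ajuba, Tead1, Yap1, Ptpn14 and Lats2. Ajuba and Tead1 were the only neighbours in that order whose libraries overlapped. In DRG CM, Ankrd1 moved above Crim1, and Tead1 and Ajuba again overlapped. Control library 3 had the lowest control value for 5 of the 10 genes and the highest for 2, and control library 2 had the highest for 5. Conditioned library 2 likewise had the lowest conditioned value for 5 of the 10 genes.

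Calls among the other target genes went in both directions. Of the 16 further genes of the target signature, 15 were tested: 1 rose, 2 fell and 12 did not pass, with a median log2 fold change of 0.02. At an unadjusted p below 0.05, 4 were higher and 4 lower, and voom called 3 higher (F3, Ctgf and Arhgef17) and 2 lower (Igfbp3 and Ccdc80). Of all tested genes, limma called 4.04% higher and 2.49% lower, and voom 6.11% and 3.72%. At that unadjusted p the shares were 11.2% and 8.41%. F3, tissue factor, went from 44.5, 48.0 and 49.7 FPKM in control to 78.9, 76.8 and 75.7 FPKM in conditioned libraries (log2 fold change 0.69 ± 0.05 SE, limma adjusted p = 8.5e-05). Ccdc80, a secreted matrix protein, fell from 201 ± 1.35 to 180.1 ± 2.85 FPKM (-0.16, limma adjusted p = 0.017), and Igfbp3, an IGF-binding protein, from 2.08 ± 0.388 to 1.05 ± 0.104 FPKM (-0.58, limma adjusted p = 0.014). The call of Igfbp3 was lost without conditioned library 2 (-0.54, adjusted p = 0.068). That of Ccdc80 was lost without control library 2 or any 1 conditioned library (adjusted p up to 0.082). The matricellular genes Ctgf and Cyr61, the most used YAP/TAZ readouts, had 365 ± 13.1 and 395 ± 12.0 FPKM, and 568 ± 24.6 and 585 ± 3.02 FPKM. Neither passed (log2 fold changes 0.12 and 0.04, limma adjusted p = 0.14 and 0.58), and their intervals reach 0.21 and 0.13. Every conditioned library of Ctgf lay above every control library, and voom called Ctgf higher, while the groups overlapped for Cyr61. Myof, a membrane repair protein, and Asap1, an ARF GTPase activator, stood at -0.06 and 0.07 on the log2 fold scale, neither passing.

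Of 9 further genes often listed as targets, 8 were tested, and 1 rose, 1 fell and 6 did not pass (median log2 fold change 0.09). Hmmr, a hyaluronan receptor of the mitotic spindle, went from 4.48 ± 0.245 to 5.88 ± 0.517 FPKM (0.32, limma adjusted p = 0.031), and Col8a1, a collagen chain, from 142 ± 4.50 to 127 ± 0.855 FPKM (-0.16, limma adjusted p = 0.032). The calls of Hmmr and Col8a1 were each lost without 5 of the 6 libraries taken singly, the exceptions being conditioned library 3 for Hmmr and control library 3 for Col8a1 (adjusted p up to 0.13). The call of F3 held in all 15 alternative settings. Thbs1, an abundant matricellular protein, had 2980 ± 158 and 3122 ± 50.2 FPKM, and Inhba, an activin subunit, 86.1 ± 5.76 and 93.3 ± 0.955 FPKM. Fgf2, a growth factor, and Fosl1, an AP-1 subunit, stood at -0.20 and 0.12 on the log2 fold scale, and none of these 4 passed. The groups of Fgf2 did not overlap, and voom called it lower. At an unadjusted p below 0.05, 2 of the 8 tested were higher and 2 lower, and voom called 1 higher (Hmmr) and 2 lower (Fgf2 and Col8a1). The shares of all tested genes were 4.04% higher and 2.49% lower by limma, and 6.11% and 3.72% by voom. They were 11.2% and 8.41% at that unadjusted p.

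**Figure D5:**
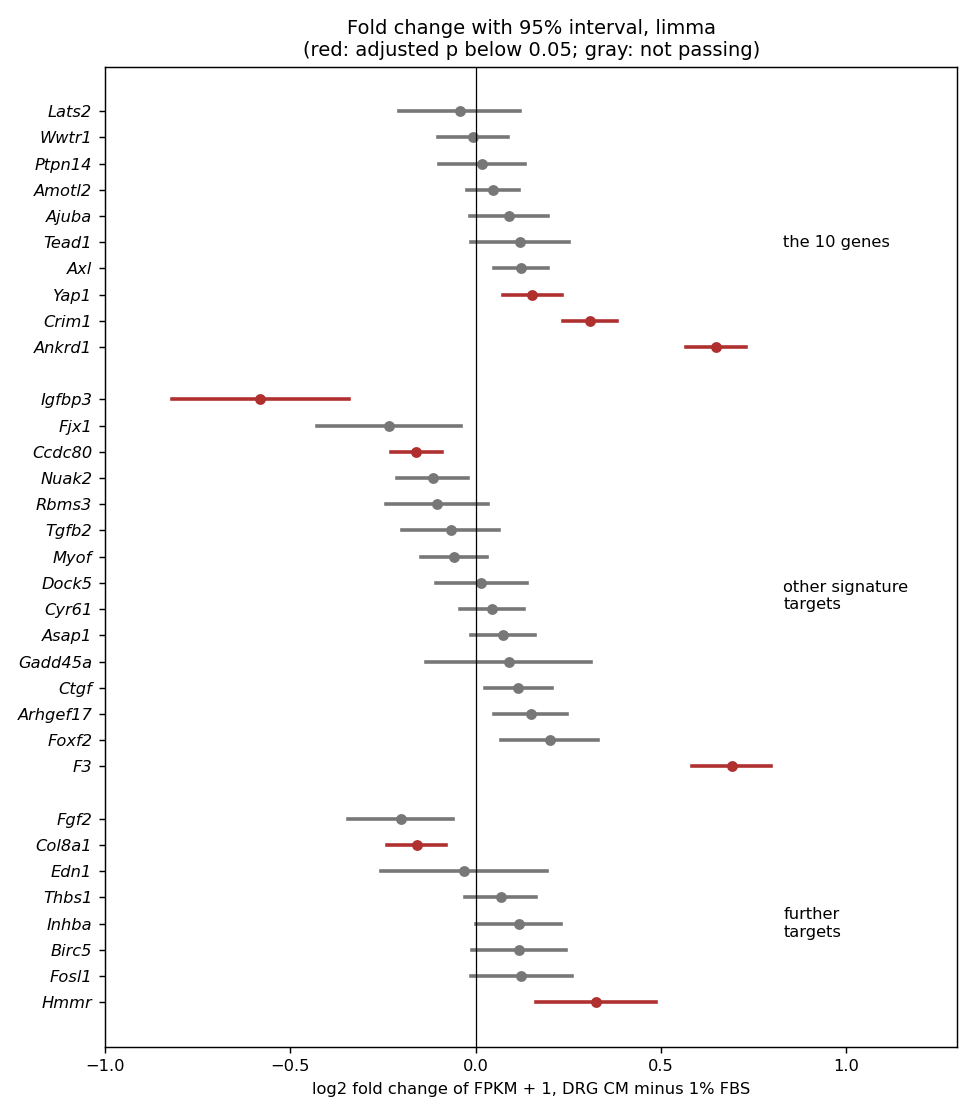
Log2 fold change of FPKM + 1 (conditioned minus control, points) with its 95% interval from limma for the 10 genes, the other tested signature targets and the further tested targets. Ankrd1, F3 and Hmmr lie farthest to the right of their groups, most intervals cross or lie near 0, and Igfbp3 (-0.58) lies farthest to the left.

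The profiles most like that of Ankrd1 were those of Gbp2, Ube2l6 and Fth1. Likeness was the Euclidean distance between log2(FPKM + 1) values centred per gene over the 6 libraries, among 7078 genes whose mean reached 5 FPKM, and was 0.072, 0.096 and 0.105. Gbp2 had 24.6 ± 0.725 and 39.6 ± 1.04 FPKM, Ube2l6 8.55 ± 0.585 and 14.2 ± 0.300 FPKM, and Fth1 1295 ± 66.5 and 1944 ± 23.5 FPKM. With 6 libraries in 2 groups, such a likeness reflects mainly an equal step between the groups.

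The markers of tendon fibroblasts were present, 11 of 12 with a mean of 1 FPKM or more, while Tppp3 itself was at 0.724 to 1.12 FPKM. Of the 11 tested, 8 fell and 0 rose in DRG CM (1 higher at an unadjusted p below 0.05, and Pdgfra higher by voom). Among all tested genes, limma called 2.49% lower and 4.04% higher. The summed level of the 11 with Tppp3 spanned 5327 to 5452 FPKM (control) and 4293 to 4400 FPKM (conditioned). Nearly all of this sum came from Col1a1 (means 3337 and 2662 FPKM), Col1a2 (1040 and 809 FPKM) and Col3a1 (753 and 680 FPKM). These collagens fell, as did Dcn, Lum, Fmod, Tnmd and Thbs4. Scx, Pdgfra and Prg4 did not pass, and Prg4 was level at 21.5 and 21.6 FPKM. In bulk libraries a change in the share of a cell type and a change in RNA per cell cannot be told apart. Of 14 markers of DRG neurons, 8 were in the table and none reached a mean of 1 FPKM; they summed to 2.43 to 2.63 FPKM (control) and 1.83 to 2.26 FPKM (DRG CM). The 7 glial markers summed to 3.33 to 4.00 and 2.19 to 3.45 FPKM, and the 6 macrophage markers in the table to 6.63 to 7.75 and 6.68 to 7.02 FPKM. The 6 endothelial markers summed to 5.76 to 6.55 and 4.43 to 4.87 FPKM, nearly all from Tek, which fell (-0.33, limma adjusted p = 0.023), while Pecam1 was at most 0.0830 FPKM. The tendon, smooth muscle and pericyte, neuronal and endothelial sums did not overlap between groups. Of these, only the smooth muscle and pericyte sum was higher in DRG CM. The part of these shifts in the values of the 10 genes was not tested.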

How the data were processed

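The authors deposited FPKM values for 24413 genes in 6 libraries, per the file headers. CASAVA, HISAT2 2.0.5 and mm10 appear in the submitters' processing notes, without roles. The counter, annotation and strand setting were not stated. Each FPKM value was a whole multiple of 1 fragment (tolerance 0.01) for all 24413 genes, 23574 with GENCODE vM21 exon lengths and 839 with the smallest whole-number length that fitted. The recovered fragments give the depth, the fragment ranges and counting error of single genes, the chi-square between libraries and an added voom test. The main test did not use them. Counting error is 1 over the square root of the fragments, and covers counting alone.

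The main test was limma 3.58.1 (R 4.3.3; trend, robust, no covariate, two-sided) on log2(FPKM + 1), for 11678 genes whose mean reached 1 FPKM, adjusted by Benjamini-Hochberg, and checked on simulated data. This scale understates changes of low genes. Lists are described by counts and medians, with no test. Tables used Python 3.11.15, pandas 2.3.3 and numpy 2.4.6; exact permutation tests scipy 1.17.1; figures matplotlib 3.10.9. The members and lists were chosen with earlier results of these data known. Named genes are the 10, their relatives and partners, and, per list, those passing and up to 4 others by highest mean. Libraries of a group differed by more than counting error (chi-square per degree of freedom 3.15 to 7.02). From the list of further targets, 1 gene is not reported here and was left out of that list's counts.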

Additional observations from a re-analysis of the deposited data

How the results depend on the processing

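Of the 10 genes, Ankrd1 and Crim1 kept their calls in all 15 alternatives. Yap1 lost its call in 10: with no low filter (0.1523, adjusted p = 0.071), quantile normalization (0.1287), no trend or robust prior (0.1523), the replicate block (0.1523, adjusted p = 0.17) and each of 6 left-out libraries (0.1466 to 0.1561). Axl gained a call by voom (0.1221), chosen after seeing the files. Signs turned for Wwtr1 (0.0192, 0.0004 and 0.0082 without control 1, control 2 or conditioned 2; range -0.039 to 0.0192), Lats2 (0.0029 without control 1; range -0.1164 to 0.0029) and Ptpn14 (-0.0128 with quantile normalization, -0.0297 without control 3; range without 1 library -0.0297 to 0.0482). The number of the 10 called higher ran from 2 to 4 and lower stayed 0. Over all genes, 472 higher and 291 lower became 259 and 131 with the replicate block, 713 and 435 with voom, 327 and 165 with no low filter, and 265 to 426 and 129 to 252 with 1 library left out; leaving out control 2, conditioned 1 or conditioned 2 gave 310 and 152, 274 and 138, and 265 and 129, and leaving out conditioned 3 gave 364 and 170. Replicate numbers are only numbers here: same-numbered libraries did not deviate together (correlations of -0.095, -0.008 and -0.048). Negative binomial tests on the recovered fragments were not run, because the file holds FPKM and no counts. The replicate block also ended the calls of Igfbp3, Ccdc80, Col8a1 and Hmmr. Having no low filter ended those of Igfbp3, Col8a1 and Hmmr (adjusted p = 0.051, 0.073 and 0.093), and having no trend or robust prior those of Ccdc80, Col8a1 and Hmmr (0.071, 0.094 and 0.05). Igfbp3 gave no value at a mean of at least 5 FPKM. For the 7 genes that did not pass, the 95% intervals, written as folds of FPKM + 1, lie within 0.867 to 1.19. That of Axl, 1.034 to 1.145, lies above 1.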
